A study of Homo sapiens
Mus musculus and Homo sapiens and Mus musculus with 7 samples.

Results

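The first and the second immunoprecipitation (IP) with an antibody against the V5 tag were set side by side, 1 library against 1. They were chosen by the sample labels and make up 2 of the 7 libraries in the series. Every value here describes these libraries, and no test between them was possible.

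All 4 IPs in the series came from a co-culture of human HEK293 cells carrying RPL22-HA and mouse NIH3T3 cells carrying RPL22-V5, grown under standard conditions with no treatment named in the labels. The V5 IPs were aimed at NIH3T3 ribosomes and the HA IPs at HEK293 ribosomes. The first V5 IP and the first HA IP were made from the lysate numbered 1, the second V5 IP from that numbered 4 and the second HA IP from that numbered 5. How these lysates relate, whether they came from separate cultures, what promoter drove the tagged genes and whether either line was 1 clone are all details that the sources used here do not give. The other libraries were total RNA of the co-culture (the input) and of each line grown alone, 1 library each.

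RPL22 is a large-subunit ribosomal protein that can carry an epitope tag while built into working ribosomes. An antibody against the tag then pulls down those ribosomes with the messenger RNA they are translating, so the RNA recovered is meant to come from the tagged cells. HEK293 is a line from human embryonic kidney and NIH3T3 a mouse fibroblast line, so the species of a read shows which line it came from. In a V5 IP, mouse reads are the intended signal and human reads come from cells without that tag.

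The second V5 IP held fewer human counts than the first. Human genes took 128915 of 2063885 counts in the first V5 IP, a share of 6.25% (exact Clopper-Pearson 95% interval 6.21 to 6.28%). They took 81798 of 1826127 in the second, a share of 4.48% (4.45 to 4.51%). The human share was 26.9% in the input. Mouse to human odds per count were 5.54 times those of the input in the first V5 IP and 7.86 times in the second. Intervals cover counting error only, because each V5 IP was 1 library. A further limit is that the reads carried no molecular identifiers.

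Mouse depth was alike in both libraries and human depth was low. The first V5 IP had 1934970 mouse counts on 12210 detected genes, and the second had 1744329 on 12081. Reduced to the depth of the second, the first would be expected to show 12057 mouse genes. Human genes detected numbered 6373 in the first and 5312 in the second, where 5714 would be expected in the first at the depth of the second. NIH3T3 cells grown alone gave 511 counts on human genes, which at the mouse depth of the V5 IPs comes to 495 and 446 human counts. Mouse identifiers are not paired with symbols in the sources used here, so fibroblast markers could not be looked up among the mouse genes. Of the human genes listed as markers of HEK293, the most abundant was STMN1, which regulates microtubules, with 19 counts in the first V5 IP and 16 in the second. VIM, the intermediate filament gene of mesenchymal cells, had 37 and 3 human counts.

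The median ratio between the V5 IPs lay near 1 in each species, where scaling to species totals tends to hold it. Levels were expressed as CPM, counts of a gene per 1000000 counts of its species, so that the difference in human share drops out. Differences are log2 ratios of second over first after a prior count of 2 was added. Genes needed at least 50 counts over the pair, and a gene was counted as past the fold at 2-fold. The median ratio was -0.01 on the log2 scale over 4541 mouse genes (SD 0.63) and -0.02 over 698 human genes (SD 0.75). Without regard to sign, the median log2 ratio was 0.32 for mouse and 0.38 for human genes. Within 1.2-fold of each other were 1981 mouse genes, 43.6% of them, and 244 human genes, 35.0%.

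Genes past 2-fold were more often lower than higher in the second V5 IP. Of the mouse genes, 322 were at least 2-fold lower in the second (7.09%) and 150 at least 2-fold higher (3.3%), which made 10.4% past 2-fold in all. Of the human genes, 69 were at least 2-fold lower (9.89%) and 31 at least 2-fold higher (4.44%), or 14.3% in all. Past 4-fold, 44 mouse genes were lower and 9 higher, and 13 human genes were lower and 1 higher. The 322 lower mouse genes made up 2.27% of mouse counts in the first V5 IP and 0.680% in the second. The 69 lower human genes took 6.32% of human counts in the first and 1.78% in the second. The choice of genes by this ratio fixes both falls. The species are not alike in this, since 698 human and 4541 mouse genes met the minimum count. That minimum was set on unscaled counts, and human counts were 128915 in the first V5 IP and 81798 in the second. Human genes higher in the first therefore met it more easily than those higher in the second. How far this made lower human genes outnumber higher ones was not tested.

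The share past 2-fold depended on counts. Among mouse genes with 50 to under 200 counts over the pair, 16.7% were past 2-fold, against 3.94% of the 1447 genes with 200 to under 1000 counts. Of the 639 mouse genes with 1000 counts or more, 6 were lower and 0 higher. Human genes showed 16.8% of 530 in the lowest range, 6.43% of 140 in the middle range, and 2 of 28 in the highest, both lower. The 2 human genes in the highest range were RPL13 and RPS2, described further on and singled out here after their values were seen.

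**Figure D1:**
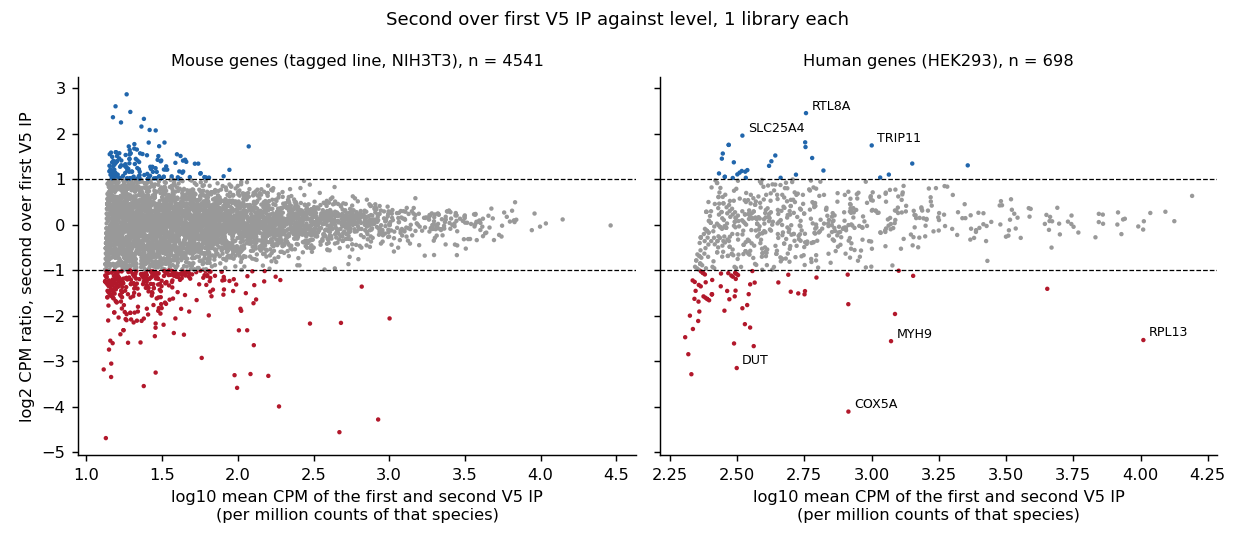
Log2 ratio of CPM, second over first V5 IP (vertical axis), against the log10 mean CPM of the pair (horizontal axis), with 1 point per gene for 4541 mouse genes (left) and 698 human genes (right). Dashed lines mark 2-fold. The points narrow with level, and the largest differences lie below 0 in both species.

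Beyond counting error, the V5 pair differed by a coefficient of variation (edgeR's common dispersion with TMM scaling) of 26.3% for mouse and 31.7% for human genes. The HA pair gave 35.0% for both species under the same minimum of 50 counts, over 1401 mouse and 3291 human genes. With a minimum of 20 counts the order was reversed for human genes, at 45.1% in V5 and 41.1% in HA. Across the 4541 mouse genes the log2 CPM of the V5 IPs had a Pearson correlation of 0.943, as a description over genes, which are not replicates. The first V5 IP correlated with the input at 0.874 and with NIH3T3 alone at 0.890, and the second at 0.879 and 0.903. Over the 698 human genes the V5 pair gave r = 0.839. In these human genes the first V5 IP was nearer to the first HA IP (0.819) than to the second (0.747). The second V5 IP was nearer to the second HA IP (0.808) than to the first (0.783). Over the mouse genes, however, both V5 IPs were nearer to the second HA IP. The first V5 IP gave 0.878 with the second HA IP and 0.863 with the first, and the second V5 IP 0.891 and 0.836. Mouse depth differed among these libraries, at 158572 counts in the first HA IP and 350176 in the second. The input had 759701 mouse counts and NIH3T3 alone 1998567. The part of depth in these correlations was not tested. The first IPs share a lysate number, and the order of an IP cannot be told apart from its lysate.

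Mouse genes, which carry the RNA of the tagged line, included the largest differences. ENSMUSG00000037060.3, on mouse chromosome 7 with 1662 exonic bases, had 1742 counts in the first V5 IP and 65 in the second. Its level was 900 CPM in the first and 37.3 CPM in the second, 24.2 times as high in the first (95% counting interval 18.9 to 31.4). In the other libraries its level was 27.0 CPM in NIH3T3 alone, 305 CPM in the input, 744 CPM in the first HA IP and 2.86 CPM in the second HA IP. Those HA levels rest on 118 counts and 1 count. Its levels in the input and in both first IPs were thus all above those in NIH3T3 alone and in both second IPs.

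ENSMUSG00000031807.10, on mouse chromosome 8 with 3770 exonic bases, followed the same order. Its level was 1608 CPM in the first V5 IP, from 3112 counts, and 82.0 CPM in the second, a ratio of 19.6 (16.6 to 23.4). It stood at 47.0 CPM in NIH3T3 alone, 1075 CPM in the input, 1703 CPM in the first HA IP and 114 CPM in the second. The input was 22.9 times NIH3T3 alone. Of the exonic bases of these genes, 22.5% and 20.6% are also covered by exons of other genes. Counting without strand cannot separate reads in such stretches.

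Most of the 10 mouse genes furthest down among those with at least 200 counts had the same order, and their medians did. Their median level was 221 CPM in the first V5 IP (range 103 to 1608) and 24.9 CPM in the second (12.6 to 82.0), so the groups did not overlap, which the choice of genes by this ratio fixes. Measures outside that choice were the HA IPs, the input and NIH3T3 alone. The median was 262 CPM in the first HA IP (37.8 to 1703) and 18.6 CPM in the second (2.86 to 114). It was 142 CPM in the input (6.58 to 1075) and 19.3 CPM in NIH3T3 alone (up to 47.0). All 9 of these genes with at least 20 HA counts were at least 2-fold lower in the second HA IP, and 9 of the 10 were at least 2-fold higher in the input than in NIH3T3 alone. The remaining gene was lowest in the input, at 6.58 CPM. Structurally they were mixed: 4 have a single exon block after merging and 4 share over 10% of their exonic bases with other genes.

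The same held more weakly over all well counted mouse genes. At 200 counts or more, 55 of 2086 mouse genes were past 2-fold lower in the second V5 IP. Of the 50 with at least 20 HA counts, 35 were also lower in the second HA IP (70.0%), against 248 of 1987 among all well counted genes (12.5%). In the input, 19 of the 55 were at least 2-fold above NIH3T3 alone (34.5%), against 105 of 2086 (5.03%). Both applied to 20 of the 2086 genes, and 15 of those 20 were among the 55.

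**Figure D2:**
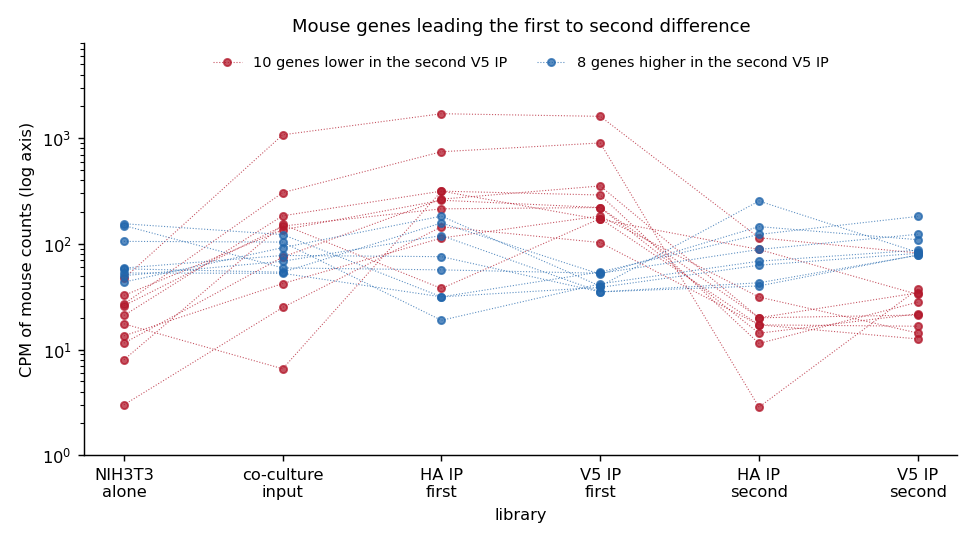
CPM of mouse counts (vertical log axis) in 6 libraries, with 1 line per gene for the 10 mouse genes furthest down (red) and the 8 furthest up (blue) in the second V5 IP among those with at least 200 counts. Red lines have higher medians in the input and both first IPs than in NIH3T3 alone and both second IPs, 142, 262 and 221 CPM against 19.3, 18.6 and 24.9 CPM, and 1 red gene is lowest in the input, at 6.58 CPM.

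Only 8 mouse genes with at least 200 counts were past 2-fold higher in the second V5 IP, and 3 of them were not with a prior count of 8. ENSMUSG00000029465.14, on mouse chromosome 5, had 105 counts in the first and 317 in the second, or 54.3 CPM and 182 CPM, a log2 ratio of 1.72. It stood at 155 CPM in NIH3T3 alone and 122 CPM in the input. The first and second HA IPs gave 31.5 CPM and 123 CPM, from only 5 and 43 counts, so it was low in both first IPs. ENSMUSG00000001707.8, on mouse chromosome 13, had 102 and 215 counts in the V5 IPs, a log2 ratio of 1.21. Over the 8 genes, the median level was 40.8 CPM in the first V5 IP and 85.1 CPM in the second, beside 58.5 CPM in NIH3T3 alone and 73.1 CPM in the input. In the HA pair, 2 of the 8 were past 2-fold higher and 1 past 2-fold lower in the second. Of the 1987 well counted mouse genes with at least 20 HA counts, 8.91% were higher and 12.5% lower there.

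Long mouse genes with many exons were more often lower in the second V5 IP. The median log2 ratio went from 0.10 in the quintile of genes with the shortest exonic length to -0.10 in the longest quintile. The share past 2-fold lower went from 2.75% to 12.2%, and the share past 2-fold higher from 2.31% to 3.52%. By number of exon blocks, the median went from 0.13 in the lowest quintile to -0.21 in the highest. The HA pair went the same way, over those mouse genes with at least 50 counts there. Its medians went from 0.30 to -0.39 by length and from 0.27 to -0.47 by exon blocks. The median count over the V5 pair went down with length as well, from 366 to 103.5. Human genes had medians of 0.17 in the shortest quintile and -0.11 in the longest. Across genes, rank correlations with length were weak, at -0.14 over 4541 mouse and -0.15 over 698 human genes. The GC content of human transcripts had a rank correlation of 0.03 with the ratio. The part of length, counts or exon number in the differences was not tested.

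The human genes furthest down in the second V5 IP had varied roles in the cell. COX5A (hg38 chromosome 15, 74919791 to 74938168), a subunit of cytochrome c oxidase, had 202 counts in the first V5 IP and 6 in the second. Its level was 1567 CPM of human counts in the first and 73.4 CPM in the second, 21.4 times as high in the first (9.65 to 58.9). It was 564 CPM in the input, 575 CPM in HEK293 alone, 2716 CPM in the first HA IP and 174 CPM in the second. COX5A thus stood above the input and HEK293 alone in both first IPs and below them in both second IPs.

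DUT (hg38 chromosome 15, 48331011 to 48343373), the dUTPase that keeps uracil out of DNA, went from 75 counts to 4, a ratio of first over second of 11.9 (4.46 to 44.8). Its level was 278 CPM in the input, 699 CPM in the first HA IP and 124 CPM in the second. Exons of other genes cover 14.5% of its exonic bases. MYH9 (hg38 chromosome 22, 36281277 to 36388067), the heavy chain of non-muscle myosin IIA, had 262 counts in the first V5 IP and 27 in the second, or 2032 CPM and 330 CPM. Its level was 35.7 CPM in the input, 21.8 CPM in HEK293 alone, and 107 CPM and 5.77 CPM in the HA IPs. Human MYH9 was therefore higher in both V5 IPs than in any other library, and it had 0 counts in NIH3T3 alone.

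RPL13 (hg38 chromosome 16, 89560657 to 89566828), which belongs to the large ribosomal subunit, had the most counts of the human genes past 2-fold, with 2252 in the first V5 IP and 246 in the second. Its level was 17469 CPM and 3007 CPM, 5.81 times as high in the first (5.09 to 6.65). The HA IPs gave 15935 CPM and 3706 CPM, the input 19881 CPM and HEK293 alone 10433 CPM. The second IPs of both antibodies thus lay below every other library with human cells. RPL13P12, a processed pseudogene of RPL13, had 49 and 9 counts in the V5 IPs, and reads of the pair may have been split between them.

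Other human genes furthest down differed in what the HA pair showed. PSMD4, a ubiquitin receptor of the proteasome, had 83 and 7 counts in the V5 IPs and a log2 ratio of -2.66, against -0.69 in the HA pair. EIF4G1, the scaffold of the cap-binding complex, had 70 and 6 counts and log2 ratios of -2.61 in V5 and -1.09 in HA. MRPS5, of the small subunit of the mitochondrial ribosome, had 77 and 9 counts, with -2.26 and -1.16. PLEKHJ1, a pleckstrin homology domain protein, had 73 and 9 counts and -2.18 in the V5 pair, while the HA pair gave 0.23. Exons of other genes cover 22.0% of PLEKHJ1. Of the 8 human genes furthest down, 6 were also past 2-fold lower in the second HA IP, as were 24 of the 579 human genes with at least 60 counts (4.15%).

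**Figure D3:**
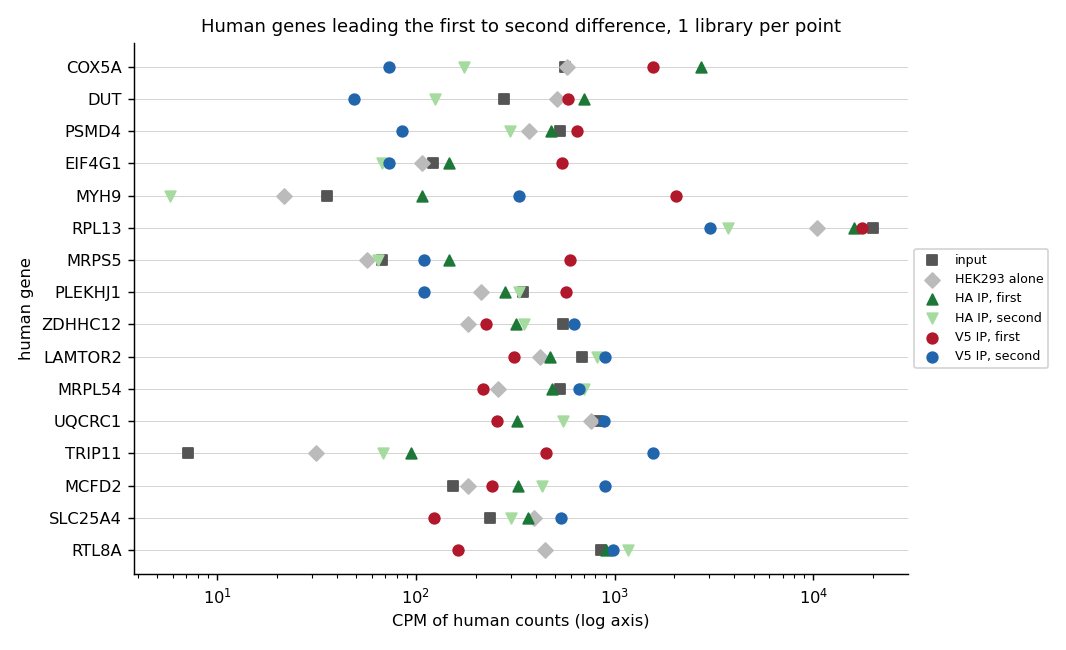
CPM of human counts (horizontal log axis) for the 8 human genes furthest down and the 8 furthest up in the second V5 IP among those with at least 60 counts, with 1 point per library. COX5A, DUT, MYH9 and RPL13 are lower in both second IPs than in both first IPs, except that MYH9 in the second V5 IP, at 330 CPM, lies above the first HA IP, at 107 CPM. RTL8A, SLC25A4, UQCRC1, MRPL54 and LAMTOR2 are lowest in the first V5 IP.

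The human genes furthest up in the second V5 IP rested on small counts. RTL8A (hg38 chromosome X, 135050932 to 135052196), a gene derived from a retrotransposon that has close copies nearby, had 21 counts in the first and 80 in the second, or 163 CPM and 978 CPM. Its level was 850 CPM in the input, 445 CPM in HEK293 alone, and 910 CPM and 1167 CPM in the HA IPs. The first V5 IP was therefore the library that stood apart, below all the others with human cells. SLC25A4, the ADP/ATP carrier of the inner mitochondrial membrane, had 16 and 44 counts, or 124 CPM and 538 CPM, beside 236 CPM in the input.

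UQCRC1, a core subunit of respiratory complex III, was lowest in the first V5 IP like RTL8A, with 256 CPM in the first V5 IP and 880 CPM in the second beside 825 CPM in the input. MCFD2, which helps carry clotting factors out of the endoplasmic reticulum, had 31 and 73 counts and a log2 ratio of 1.81. TRIP11, a golgin, had 58 and 127 counts, or 450 CPM and 1553 CPM, against 7.14 CPM in the input and 94.6 CPM and 68.4 CPM in the HA IPs. Like MYH9, human TRIP11 was higher in both V5 IPs than in any other library and had 0 counts in NIH3T3 alone.

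MRPL54, of the large subunit of the mitochondrial ribosome, had 28 and 54 counts in the V5 IPs. LAMTOR2, of the lysosomal Ragulator complex, had 40 and 73, and ZDHHC12, a palmitoyltransferase, had 29 and 51. Their log2 ratios were 1.52, 1.47 and 1.40. Of the 8 human genes furthest up, 0 were past 2-fold in either direction in the HA pair, where 24 of those 579 genes were lower and 3 higher.

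The counts of TNR, the tenascin-R gene, were close to what mouse cells alone gave in the first V5 IP and above it in the second. It had 168 counts in the first V5 IP and 266 in the second, a log2 ratio of 1.31, but 160 counts in NIH3T3 alone. At the mouse depth of the V5 IPs that comes to 155 and 140 counts, or 67.9% of all it had over both. From first to second, this expected count went down while the observed count went up. RPL22, the gene of the tagged protein itself, had 25 and 38 human counts, or 194 CPM and 465 CPM, a ratio of 2.40 (1.41 to 4.14). Its level was 118 CPM in the input, and its expected count from mouse cells was 4.84 and 4.36. RPL22L1, its paralog, had 34 and 26 human counts, a log2 ratio of 0.25. The mouse counterparts of both could not be looked up.

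The HA pair was then set beside the V5 pair gene by gene. They share no library, but the first IPs share a lysate number. Over 1398 mouse genes with at least 50 counts in each pair, the ratios correlated with r = 0.476 (Spearman's rho 0.365), and over 697 human genes with r = 0.465 (rho 0.361). In the HA pair, 8.14% of 1401 mouse genes were past 2-fold lower and 6.85% higher in the second, 15.0% in all. Of 3291 human genes, 15.3% were lower and 3.07% higher, 18.4% in all. Of the genes counted in both pairs, 27 mouse genes were lower in the second V5 IP and 20 of them also in the second HA IP. That is 74.1% of the 27 and 17.9% of the 112 mouse genes lower in HA, which are 8.01% of all 1398.

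Of 68 human genes lower in the second V5 IP, 18 were also lower in the second HA IP. That is 26.5% of the 68 and 46.2% of the 39 human genes lower in HA, which are 5.60% of all 697. Of the genes higher in the second V5 IP, 1 of 5 mouse and 0 of 31 human genes were past 2-fold higher in HA too, where 6.87% of the 1398 mouse and 0.430% of the 697 human genes were. Their median HA log2 ratios were 0.29 in mouse and 0.08 in human, beside 0.09 and 0.04 over all these genes. Among the 68, PFN1, which binds actin monomers, had 164 and 30 counts in the V5 IPs and 1213 and 188 in the HA IPs. CKB, the brain-type creatine kinase, had 252 and 40 counts in V5 and 1537 and 734 in HA. PRKDC, the catalytic subunit of the DNA-dependent protein kinase, had 253 and 73 in V5 and 226 and 75 in HA. CKB and PRKDC were singled out after their values were seen.

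**Figure D4:**
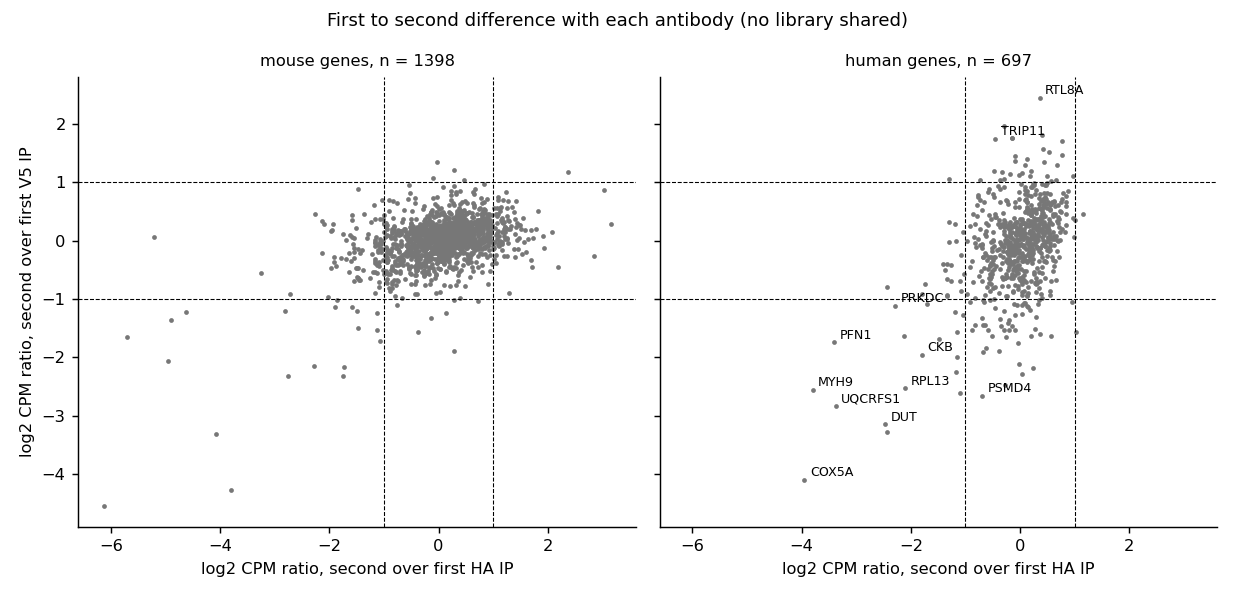
Log2 ratio of CPM, second over first, in the V5 pair (vertical axis) against the HA pair (horizontal axis), with 1 point per gene for 1398 mouse genes (left) and 697 human genes (right) with at least 50 counts in each pair. Dashed lines mark 2-fold. The lower left corner holds 20 mouse and 18 human genes, and the upper right corner 1 and 0.

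The mitochondrial share of human counts was higher in the second V5 IP. It was 2.28% in the first (2.20 to 2.36%) and 3.54% in the second (3.41 to 3.66%), beside 5.58% in the input and 8.35% in HEK293 alone. In the HA IPs, which target the human ribosomes, the share was 0.354% and 0.466%. Mitochondrial transcripts are translated by ribosomes of the organelle, which do not contain RPL22. The mitochondrial share of mouse counts was 0.222% (0.215 to 0.229%) and 0.234% (0.227 to 0.242%), beside 1.97% in the input and 2.97% in NIH3T3 alone. It thus differed far less between the V5 IPs than the human share did.

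Of 11 human mitochondrial genes with at least 50 counts, 2 were past 2-fold higher in the second V5 IP and 0 lower. Of all 698 human genes, 4.44% were past 2-fold higher and 9.89% lower. MT-CO3, a subunit of cytochrome c oxidase, had 102 and 167 counts, or 791 CPM and 2042 CPM, and MT-ND1, of respiratory complex I, had 94 and 130, or 729 CPM and 1589 CPM. MT-RNR2, the large ribosomal RNA of the organelle and the human gene with the most counts here, had 1568 and 1547 counts, or 12163 CPM and 18912 CPM. MT-RNR1, the small ribosomal RNA, went the other way with 70 and 28 counts. The median over the 11 genes was 0.64, with 10 above 0, or 8 above 0 with TMM or DESeq2 scaling. Of 8 mouse mitochondrial genes with at least 50 counts, 2 were past 2-fold higher, with 59 and 138 counts and with 39 and 84 counts. The median over the 8 was 0.14. Of all 4541 mouse genes, 3.3% were past 2-fold higher.

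The RNAs of the ribosome and of translation differed little as groups. Large-subunit ribosomal protein genes took 17.0% of human counts in the first V5 IP and 16.6% in the second. Small-subunit genes took 12.1% in the second, 1.01 times the first (0.988 to 1.04). Of all 698 human genes, 9.89% were past 2-fold lower and 4.44% higher. Of 45 large-subunit genes with at least 50 counts, RPL13 was past 2-fold lower and RPL22 higher. Of 30 small-subunit genes, RPS2 was past 2-fold lower, with 843 and 201 counts. Exons of other genes cover 25.6% of RPS2, and its pseudogene RPS2P5 had 68 and 11 counts, so its reads are uncertain. The medians were 0.15 and 0.08, but the latter was -0.03 with DESeq2 scaling.

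RPS19 and RPS15, of the small subunit, and RPL36 and RPL8, of the large, had the highest mean human CPM of the V5 pair after MT-RNR2, with no adjustment for length. In the first V5 IP alone RPL13 was above all of these. RPS19 stood at 12970 CPM in the first V5 IP and 13717 CPM in the second, and RPL8 at 9999 CPM and 10563 CPM. Of 18 translation factors, 2 were past 2-fold lower and 0 higher, beside 9.89% and 4.44% of all 698 human genes. The 2 were EIF4G1 and EIF3D. EIF3D, a subunit of the initiation factor that binds the small ribosomal subunit, had 68 and 14 counts. EEF1A1, the elongation factor that brings transfer RNA to the ribosome, had 2575 CPM and 2457 CPM.

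Genes of the actin cytoskeleton took less of the human counts in the second V5 IP. Their share was 1.21% in the first and 0.833% in the second, a ratio of second over first of 0.690 (0.629 to 0.755), beside 0.900 in the HA pair. Of 10 members with at least 50 counts, 3 were past 2-fold lower and 0 higher, beside 9.89% and 4.44% of all human genes. These were MYH9, PFN1 and TPM3, a tropomyosin, with 68 and 17 counts. MYH9 held 262 and 27 of the 1556 and 681 counts of this list, and the ratio without it was not computed. ACTG1, cytoplasmic gamma-actin, had 169 and 77 counts, while CFL1, which severs actin filaments, had 135 and 126 and a log2 ratio of 0.55. These counts stand beside human totals of 128915 and 81798, so equal levels would give fewer counts in the second.

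Chaperone and splicing genes had lower medians than all human genes. Among all 698 human genes, 9.89% were past 2-fold lower and 4.44% higher. Of 11 heat shock and cytosolic chaperone genes, HSP90AB1, the constitutive form of HSP90, was past 2-fold lower with 218 and 68 counts, and TCP1, of the chaperonin ring, higher with 23 and 32. Both lay close to the threshold: TCP1 was at 0.99 with TMM and 0.96 with DESeq2 scaling, and HSP90AB1 at -0.96 with a prior count of 8 and -0.99 without mitochondrial genes in the total. With DESeq2 scaling 3 of the 11 were lower and 0 higher. Their median was -0.48 and their summed ratio 0.813 (0.737 to 0.895), against 0.598 in the HA pair. HSP90AA1, the inducible form, had 148 and 126 counts and a log2 ratio of 0.42, so the pair of HSP90 genes differed in sign. Of 15 splicing genes, SRSF7, a serine and arginine rich factor, was past 2-fold lower with 112 and 31 counts and 0 were higher (2 lower with TMM or DESeq2 scaling). Their median was -0.41 and their summed ratio 0.807 (0.739 to 0.881), against 0.825 in HA.

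All 8 glycolysis genes with at least 50 counts had log2 ratios below 0, from -1.22 to -0.03, but only PGK1, which makes ATP in the pathway, was past 2-fold, with 40 and 10 counts and a log2 ratio of -0.96 with a prior count of 8. Among all 698 human genes, 9.89% were past 2-fold lower and 4.44% higher. GAPDH had 1171 and 645 counts, or 9083 CPM and 7885 CPM. ENO1, an enolase, had 435 and 254 counts, a CPM ratio of second over first of 0.920 (0.785 to 1.08). The summed ratio of glycolysis was 0.849 (0.790 to 0.911) in V5 and 0.824 in HA. Selenoprotein genes, whose messages recode a stop codon, took 0.548% of human counts in the first V5 IP and 0.656% in the second, beside 0.766% and 1.01% in the HA IPs. Among 6 of them, SELENOM was past 2-fold higher, with 42 and 59 counts, and at 0.99 with a prior count of 8.

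Members past 2-fold in other groups stand beside 9.89% lower and 4.44% higher among all 698 human genes. Of 41 nuclear-encoded respiratory chain genes, 4 were lower and 1 higher, with a summed ratio of 1.02 (0.970 to 1.08). Those lower were COX5A, UQCRFS1, the Rieske protein of complex III, with 49 and 3 counts, and ATP5F1C and ATP5PD, of ATP synthase, with 44 and 8 and with 41 and 12. UQCRC1 was the one higher. Of 14 proteasome genes, PSMD4 was lower and 0 were higher (2 lower with TMM or DESeq2 scaling). None of the 9 nucleolar and none of the 9 endoplasmic reticulum genes was past 2-fold, although 1 of the latter was past 2-fold lower with TMM or DESeq2 scaling. Of 7 histone genes, HIST2H2AC was lower, with 61 and 12 counts, and of 4 DNA replication genes, MCM7, of the replicative helicase, with 56 and 12.

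**Figure D5:**
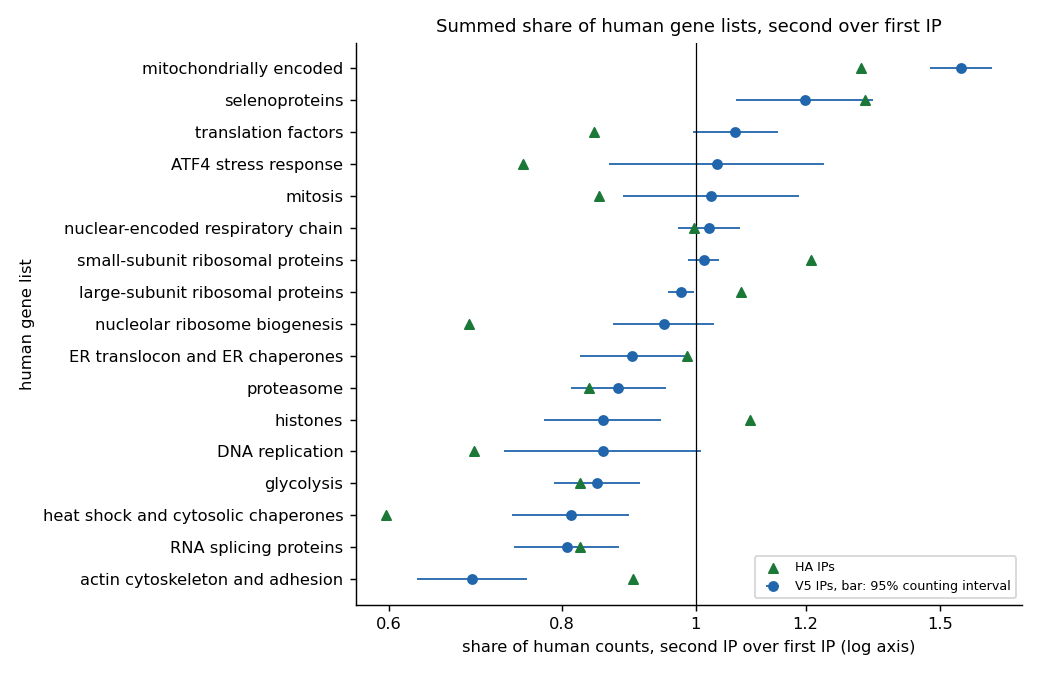
Share of human counts held by each gene list with at least 500 counts over the V5 pair, second over first IP (horizontal log axis), for the V5 pair (blue, with 95% counting intervals) and the HA pair (green). Of the lists shown, mitochondrially encoded genes lie furthest to the right in V5, at 1.55, and genes of the actin cytoskeleton furthest to the left, at 0.690.

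MALAT1, a long non-coding RNA kept in the nucleus, had 129 and 131 counts in the V5 IPs, or 1001 CPM and 1602 CPM, a log2 ratio of 0.67. Its level was 221 CPM in the input and 2906 CPM in HEK293 alone, so both V5 IPs lay between these libraries. In the HA IPs it stood at 311 CPM and 423 CPM, also higher in the second. Human genes of the immediate early, p53 and interferon lists, and the fibroblast and HEK293 marker lists, had no member with 50 counts over the pair, so no ratio was read for them.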

How the data were processed

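Each of the 7 libraries was deposited as whole-number counts per gene. Per the file headers, the authors made these counts by running featureCounts 1.5.2 on a joint human and mouse annotation. Read pairs were summed over the exons of a gene, and strand was ignored (option 0). STAR 2.5.2, Trim Galore, SAMtools, bcl2fastq and the build hg38 are also named in the submitters' processing notes. No mouse build is given in the sources used here. Human identifiers (58721) all matched GENCODE 29, while the 54752 mouse identifiers came without symbols, so gene lists could be read for human genes only.

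Counts were scaled to the total of their own species. With 1 library against 1, no test was run. Ratios carry exact conditional 95% counting intervals, and the spread of a pair is the common dispersion of edgeR 4.0.16 in R 4.3.3. DESeq2 1.42.0 gave size factors as an alternative scaling. Intervals used scipy 1.17.1, tables pandas 2.3.3 and numpy 2.4.6, and plots matplotlib 3.10.9, all under Python 3.11.15. The procedure was tested on simulated data.

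Named genes were those furthest from 0 in each direction (up to 10 mouse genes with at least 200 counts and 8 human genes with at least 60), the 5 most abundant of each species, the 2 most abundant members of each of 26 lists and up to 2 members past 2-fold, and RPL22 and RPL22L1. At most 2 mouse identifiers per direction are printed. The comparison, lists and rule were chosen with earlier results of these data known. Further list members past 2-fold are named where a list had few.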

Additional observations from a re-analysis of the deposited data

How the results depend on the processing

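The counts of genes past the fold depended on the minimum count and on the fold chosen. With at least 20 counts over the pair, 448 mouse genes were higher and 778 lower in the second V5 IP, and 172 human genes were higher and 276 lower. With at least 200 counts these were 8 and 55 mouse genes and 4 and 7 human genes, and with no minimum beyond 1 count they were 1797 and 1902 mouse and 1365 and 1603 human genes. At 1.5-fold they were 473 and 712 mouse and 104 and 147 human genes, and at 4-fold 9 and 44 mouse and 1 and 13 human genes. A prior count of 8 left 90 mouse and 20 human genes higher. The counts of lower genes under that prior, and all counts under a prior of 0.5, TMM or DESeq2 scaling, totals without mitochondrial genes, and genes seen in the other line left out, stayed within 1.5 times those reported. So did 2 alternatives chosen after seeing the data, a counting interval clear of 1 and overlapping genes left out. The median over all human genes was -0.12 with DESeq2 scaling, against -0.02 as reported.

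The spread of the V5 pair, at other minimums also chosen after seeing the data, was 31.9% at 20 counts and 20.9% at 200 for mouse genes, and 45.1% and 26.7% for human genes. The HA pair gave 45.1% and 28.4% for mouse genes, and 41.1% and 28.3% for human genes. The correlation of the V5 with the HA ratios was 0.268 and 0.662 for mouse genes and 0.274 and 0.769 for human genes. Of 520 values of 104 named genes under other settings, 517 stayed within their counting interval, 3 lay outside it (KLF6, CIT and MT-RNR2), and 0 called values changed sign. Spread and correlation both moved with the minimum count, so genes with few counts, most of all human genes, are measured least firmly. No paired analysis was possible because 1 library was set against 1 and no test was run. For the same reason no library could be left out. The mouse mitochondrial share without ribosomal RNA was not run, since the mouse genes carry no gene type here.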

Other observations

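Some human genes below the minimum of 50 counts differed by more than their counting interval. CIT, the citron kinase of cell division, had 4 counts in the first V5 IP and 40 in the second, a ratio of CPM of 15.8 (5.70 to 60.6), beside 0 counts in the input, 4 in HEK293 alone, and 1 and 4 in the HA IPs. Together with MYH9 and TRIP11, it stood higher in the second V5 IP than in the input, HEK293 alone and both HA IPs. Human genes of the interferon list summed to 20 counts in the first V5 IP and 3 in the second, beside 17 in the input and 48 in HEK293 alone. Human genes of the fibroblast marker list summed to 41 and 9, of which VIM had 37 and 3.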
